A study of Homo sapiens with 27 samples.

Results

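Fibronectin (FN1), 3 laminin chains (LAMA4, LAMB1, LAMC1) and 5 matricellular or matrix-modulating genes (SPARC, TNC, THBS1, THBS2, VCAN) were followed in uveal melanoma cells under long-term FAK inhibition. These 9 genes were taken by symbol from a count table of 61533 genes, and each symbol matched a single row. The cells were the established uveal melanoma line 92.1, which carries a GNAQ mutation and therefore represents a single tumour. They were passaged in 100 nM of VS-4718, a small-molecule inhibitor of focal adhesion kinase (FAKi), or in the solvent DMSO, with medium and treatment renewed every 72 h. The 27 mRNA libraries came from DMSO cultures at day 0 and from DMSO and FAKi cultures at days 3, 7, 14 and 21, with 3 libraries in each of the 9 groups. All groups shared the same serum-containing medium, no FAKi library was made at day 0, and no other genotype or line was included.

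Fibronectin and laminins are large secreted glycoproteins that cells bind through integrins, and integrin clustering at adhesion sites recruits and activates FAK. A laminin is a trimer of an alpha, a beta and a gamma chain, and LAMA4, LAMB1 and LAMC1 encode chains that can assemble with each other in vessel and nerve basement membranes. Matricellular proteins, among them SPARC, tenascin-C (TNC) and the thrombospondins (THBS1, THBS2), sit in the matrix with little structural role and tune adhesion, while versican (VCAN) is a large chondroitin sulfate proteoglycan. Melanocytes and melanomas are known to make several of these proteins themselves, with fibroblasts and endothelium as other major sources.

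Total counts per library ran from 12161994 to 43651551, and levels are given as CPM (counts scaled to a common library size) after scaling over all 27 libraries. The line carried its lineage genes at high levels, with medians of 4500 CPM for PMEL, 5450 CPM for TYRP1 and 716 CPM for SOX10, whereas DCT had 10.3 CPM and S100B 0.996 CPM. Of 9 fibroblast markers, COL1A2, COL3A1, DCN, FAP and THY1 had a median of 0, and the summed list, mostly COL1A1 and LUM, stayed between 6.38 and 17.9 CPM. Summed endothelial and leukocyte markers stayed below 1 CPM in each library. In some groups a library stood apart from the other replicates. The replicates of DMSO day 3, FAKi day 7 and DMSO day 21 differed from each other by a mean of 0.619, 0.621 and 0.603 on the log2 scale, while those of DMSO day 0 and DMSO day 7 differed by 0.29 and 0.257. DMSO day 3 replicate 1, FAKi day 7 replicate 1 and DMSO day 21 replicate 3 stood apart in these groups. For the 9 genes, main results whose call or size turned on these libraries are also given without them. Related genes and cell markers are given with all libraries only, so their dependence on single libraries was not examined. FAKi day 7 replicate 1 was as close as 0.215 to FAKi day 14 replicate 1. The share of counts on mitochondrial genes lay between 5.49% and 26.97% over the libraries.

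The 9 genes split into 5 that were expressed and 4 near the detection limit. Averaged over all libraries and per kilobase of exon, which allows levels of different genes to be set side by side, SPARC had 24 CPM per kb, LAMC1 18.6, LAMB1 16.6, FN1 2.2 and LAMA4 1.89. At day 0 SPARC had 24.5 ± 1.97 CPM per kb (SD, n = 3), LAMB1 24.4 ± 0.473 and LAMC1 23.1 ± 0.61, so that SPARC overlapped both laminin chains and LAMC1 lay just below LAMB1. FN1 at 3.11 ± 0.354 and LAMA4 at 2.36 ± 0.105 CPM per kb were several times lower on that day and did not overlap each other. By day 21 in DMSO the order had opened up, with SPARC at 25.3 ± 2.33, LAMB1 at 18.3 ± 1.88 and LAMC1 at 10.6 ± 4.45 CPM per kb. In FAKi at day 21 SPARC at 13.6 ± 0.565, LAMB1 at 13.4 ± 0.721 and LAMC1 at 12.3 ± 1.16 CPM per kb lay within each other's spread, and so did LAMA4 at 1.44 ± 0.192 and FN1 at 1.17 ± 0.256. The remaining genes had 186 (VCAN), 122 (THBS2), 73 (TNC) and 61 (THBS1) counts over all 27 libraries together.

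The upstream 250 bases of 4 expressed genes are shown because they carry the patterns described below. SPARC was higher in all FAKi libraries at day 14 and lower in all of them at day 21. LAMB1 had lower mean values with FAKi on each day, and FN1 and LAMC1 deviated together from their group means. The sign of the FAKi difference also varied between days for FN1, LAMA4 and LAMC1. Sequences are from RefSeq on GRCh38.p14, 5′ to 3′ along the gene's strand, and end at the base before the annotated gene start. Capitals mark the letters of motifs searched on both strands: AP-1 (TGANTCA), CRE (TGACGTCA), TEAD (CATTCC), SP1 (GGGCGG), the CCAAT box (CCAAT), the TATA box (TATAAA) and the MITF boxes (CACGTG and CATGTG).
SPARC (chr5:151686916-151687165, minus strand): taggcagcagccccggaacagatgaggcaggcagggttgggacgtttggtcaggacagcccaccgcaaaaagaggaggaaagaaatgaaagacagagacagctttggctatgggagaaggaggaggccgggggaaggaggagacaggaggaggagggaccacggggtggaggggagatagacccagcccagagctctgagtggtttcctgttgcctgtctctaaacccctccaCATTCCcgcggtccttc
LAMB1 (chr7:108003162-108003411, minus strand): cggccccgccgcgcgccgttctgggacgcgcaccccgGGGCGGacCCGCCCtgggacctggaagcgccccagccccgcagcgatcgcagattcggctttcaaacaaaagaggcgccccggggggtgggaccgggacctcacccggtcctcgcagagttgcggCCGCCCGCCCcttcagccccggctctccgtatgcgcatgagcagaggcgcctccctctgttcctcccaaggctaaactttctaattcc
FN1 (chr2:215436069-215436318, minus strand): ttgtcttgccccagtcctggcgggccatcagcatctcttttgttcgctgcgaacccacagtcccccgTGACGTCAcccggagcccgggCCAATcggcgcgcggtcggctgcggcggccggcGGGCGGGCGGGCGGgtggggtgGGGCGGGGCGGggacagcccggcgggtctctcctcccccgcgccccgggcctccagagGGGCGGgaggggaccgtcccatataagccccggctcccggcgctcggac
LAMC1 (chr1:183023170-183023419, plus strand): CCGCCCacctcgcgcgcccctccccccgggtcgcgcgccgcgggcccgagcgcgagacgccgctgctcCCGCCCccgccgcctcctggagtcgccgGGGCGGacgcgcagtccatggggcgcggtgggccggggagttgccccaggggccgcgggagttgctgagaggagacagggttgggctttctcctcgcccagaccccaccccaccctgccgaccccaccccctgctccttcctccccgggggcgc
The SPARC stretch was 59.2% G and C with 7 CpG dinucleotides, and its single motif was CATTCC, 17 bases before the start, on the gene's strand. CATTCC or its reverse complement was present in 11.9% of the 27305 promoters of the same length. FN1 had 76.4% G and C, 32 CpG dinucleotides, 6 matches of GGGCGG, of which 3 and 2 lay in overlapping runs, a CCAAT box and, 183 bases before the start, the CRE letters TGACGTCA, which 1.76% of promoters held. LAMC1 had 79.6% G and C with 32 CpG dinucleotides and LAMB1 70.4% with 28, and their matches, 3 and 4 in number, were all of GGGCGG or its reverse complement, found in 42.3% of promoters. AP-1, TATA and MITF letters were not in these 4 windows. The start of LAMB1 in RefSeq lies 28 bases from that of the counted transcript, and the other 3 starts are identical. A match of letters is a description of the sequence and not a measured binding site.

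Whether FAK inhibition changed the matrix genes was asked on each day with the 6 libraries of that day, by edgeR's quasi-likelihood F test with Benjamini-Hochberg adjustment over all genes tested. To be called, a gene needed an adjusted p no higher than 0.05 together with a log2 fold change beyond 1 in either direction. None of the matrix genes was called on any of the 4 days, among 8, 6, 8 and 8 that had the 20 counts needed for a test. Over all genes 0%, 0.0269%, 1.66% and 5.28% were called at days 3, 7, 14 and 21. These shares moved with single libraries, since leaving out each in turn gave 0 to 2765 called genes at day 3, 0 to 248 at day 7, 275 to 445 at day 14 and 52 to 4248 at day 21. Without FAKi day 7 replicate 1 the log2 fold changes at day 7 were 0.12 for FN1, 0.20 for LAMA4, -0.24 for LAMB1 and -0.10 for LAMC1, and no matrix gene was called. At an unadjusted p under 0.05 there were 2, 1, 3 and 2 of the matrix genes, against 23.8%, 8.77%, 24.6% and 32.6% of all genes, and DESeq2 also called none. On the adjusted p alone SPARC passed at days 14 and 21, when 12.4% and 11.6% of all genes did. The ranges of the FAKi and the DMSO libraries were separate for 1, 3, 4 and 2 of the tested matrix genes at days 3, 7, 14 and 21, which held for 31%, 16.8%, 29% and 35.3% of all genes tested.

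**Figure D1:**
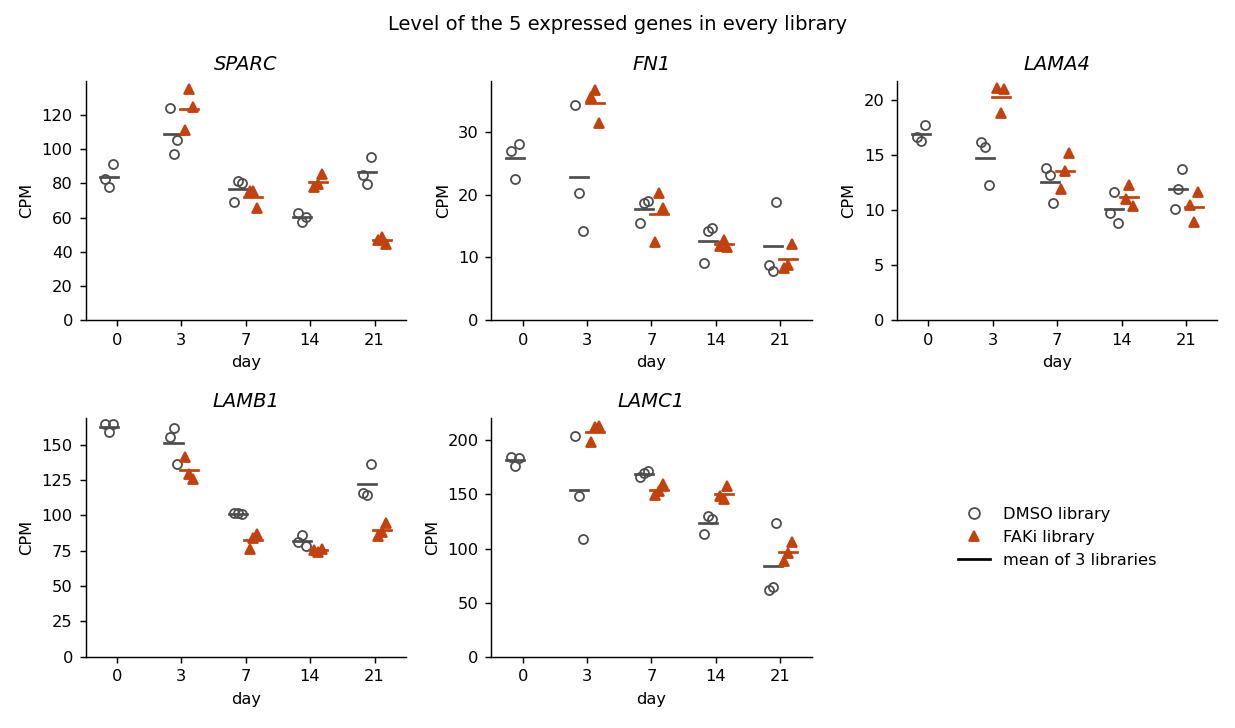
Level in CPM (vertical axis, from 0) of the 5 expressed genes in each of the 27 libraries against day, with circles for DMSO, triangles for FAKi and bars for the mean of 3 libraries. SPARC in FAKi lies above DMSO at day 14 and below it at day 21, and DMSO day 21 replicate 3 lies above the other 2 DMSO libraries of that day in FN1 and LAMC1.

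SPARC, a collagen- and calcium-binding matricellular protein, was the only matrix gene to pass the adjusted p on a single day, and the difference had opposite signs on the last 2 days. At day 14 the FAKi libraries had 77.7, 79.65 and 85.4 CPM and the DMSO libraries 62.7, 57.55 and 60.2 CPM. All 3 FAKi libraries were higher, by 0.43 ± 0.10 on the log2 scale (SE, adjusted p = 0.00679, edgeR). At day 21 the FAKi libraries had 47, 48.6 and 44.8 CPM and the DMSO libraries 85.2, 79.9 and 95.6 CPM. Here all 3 FAKi libraries were lower, with a log2 fold change of -0.87 ± 0.13 (SE, adjusted p = 0.00795, edgeR), just under the fold required for a call. SPARC (chr5:151661096-151686915, minus strand, hg38) had at least 899 counts in each of these 12 libraries. On the earlier days the libraries overlapped, with 111, 135 and 124 CPM in FAKi and 124, 97.2 and 105 CPM in DMSO at day 3, and with 75.6, 75.3 and 65.6 against 69, 81.4 and 80 CPM at day 7. The log2 fold changes were 0.21 ± 0.16 at day 3 and -0.08 ± 0.13 at day 7 (SE, adjusted p = 0.427 and 0.882, edgeR).

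The change between days was itself tested for SPARC. From day 3 to day 21 the FAKi effect on SPARC shifted by -1.10 ± 0.19 on the log2 scale (SE, interaction over 12 libraries, adjusted p = 0.0107, edgeR), which was the only call among the 8 matrix genes tested, with 2.22% of all genes called. From day 14 to day 21 it shifted by -1.32 ± 0.16 (SE, adjusted p = 0.000115, edgeR), the only call among the 7 genes with an estimate (TNC and THBS1 had groups without counts), with 7.43% of all genes called; this second contrast was added after the levels had been seen, and both share the day 21 libraries. Dropping each library in turn lost the first call in 3 of 12 fits, with a fold between -1.18 and -0.98 and an adjusted p of up to 0.0545, and the second held in all 12. The adjusted p at day 21 reached 0.0664 without FAKi day 21 replicate 2 and was 2.5e-06 without DMSO day 21 replicate 3. Averaged over the 4 days, the FAKi effect on SPARC was -0.08 ± 0.06 (SE, adjusted p = 0.395, edgeR).

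Other measures moved with the day 21 contrast. The mitochondrial share was 5.49% to 9.75% in DMSO and 10.7% to 11.2% in FAKi at day 21. With those genes removed SPARC differed by -0.87 (adjusted p = 0.00786, edgeR). The scaling already allows for such rows, so their removal could hardly change the value. The part of the mitochondrial share in the SPARC difference was not tested. Of the 9 fibroblast markers 4 were tested at day 21, with a median log2 fold change of 0.08, and 1 was called. This was LUM, a keratan sulfate proteoglycan, at -1.15 ± 0.31 (SE, adjusted p = 0.0487, edgeR), from a mean of 4.62 to 2.02 CPM. COL1A1 had 4.44 CPM in DMSO and 4.28 CPM in FAKi, PDGFRA and PDGFRB were not called, and COL1A2, COL3A1 and DCN stayed at or below 0.234 CPM in each library. The sum of the 9 markers had 7.54 to 11.4 CPM in DMSO and 6.38 to 7.76 CPM in FAKi. Of the epithelial markers 3 were tested and KRT18, a keratin of simple epithelia, was called lower at -1.82 ± 0.19 (SE, adjusted p = 0.00379, edgeR), from 41.9 to 11.7 CPM. CDH1 and KRT14 were not called, and EPCAM and KRT5 had a median of 0. The summed melanocyte lineage markers had 11730 to 13980 CPM in DMSO and 14950 to 15290 CPM in FAKi, and of these DCT was called higher at 1.19 (adjusted p = 0.0253, edgeR). The part of cells that express these markers in the SPARC difference was not tested, and in such bulk libraries fewer cells of a type and less RNA per cell cannot be told apart.

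**Figure D2:**
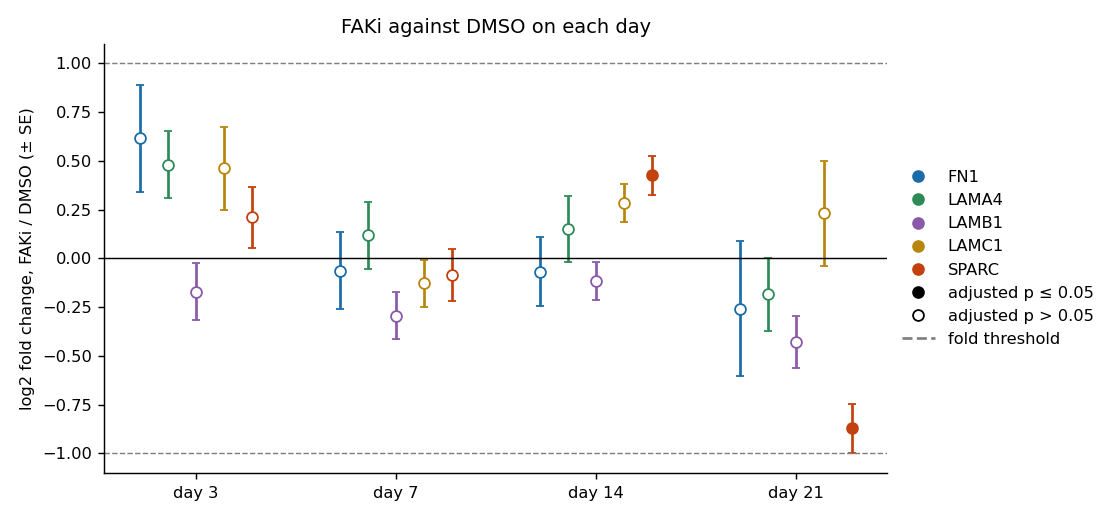
Log2 fold change of FAKi against DMSO (vertical axis, bars for the SE) of the 5 expressed genes at days 3, 7, 14 and 21, filled where the adjusted p was at most 0.05, with dashed lines at the fold threshold. Only SPARC is filled, at 0.43 on day 14 and -0.87 on day 21, and LAMB1 is below 0 on all 4 days.

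FN1 encodes fibronectin, the principal ligand of the FAK-coupled integrin pair ITGA5 and ITGB1. At day 3 it had 35.55, 36.65 and 31.5 CPM in FAKi and 34.2, 20.2 and 14.1 CPM in DMSO (replicates 1 to 3). The 3 FAKi libraries lay close together and the DMSO libraries were spread over a wide range, with replicate 1 inside the FAKi range. The log2 fold change was 0.62 ± 0.27 (SE, adjusted p = 0.208, edgeR), and without DMSO day 3 replicate 1 it was 1.03 (adjusted p = 0.00102), in a fit that called 2765 genes in all. Without DMSO day 3 replicate 3 it was 0.36. The mitochondrial share at day 3 was 18.1%, 9.59% and 8.61% in DMSO replicates 1 to 3 and 16.8% to 18.7% in FAKi, and its part in the FN1 and LAMC1 values was not tested. FN1 had 12.4, 20.3 and 17.9 CPM in FAKi and 15.5, 18.6 and 19 CPM in DMSO at day 7, 11.8, 12.8 and 11.7 against 9.09, 14.3 and 14.6 CPM at day 14, and 8.27, 8.71 and 12.2 against 8.73, 7.9 and 18.8 CPM at day 21. These libraries overlapped on all 3 later days, with log2 fold changes of -0.06 ± 0.20, -0.07 ± 0.18 and -0.26 ± 0.34 (SE, adjusted p of 0.944, 0.884 and 0.628, edgeR). The sign on each of these days turned when a library was left out, and without DMSO day 21 replicate 3 the log2 fold change at day 21 was 0.27.

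LAMB1, the laminin beta chain shared by most trimers of early and vascular basement membranes, had lower means in FAKi on all 4 days. At day 21 the FAKi libraries had 85.2, 88.2 and 94.6 CPM and the DMSO libraries 116, 114 and 137 CPM, without overlap, at a log2 fold change of -0.43 ± 0.13 (SE, adjusted p = 0.0689, edgeR). Without DMSO day 21 replicate 3 this was -0.32 (adjusted p = 0.00986, edgeR), in a fit that called 4248 genes in all. Without FAKi day 21 replicate 2 the adjusted p was 0.21 (edgeR). At day 7 the values were 76.4, 83.9 and 86.8 CPM against 101, 102 and 101 CPM, also without overlap, at -0.29 ± 0.12 (SE, adjusted p = 0.539, edgeR). At day 14 they were 75.5, 74.2 and 76.55 against 80.9, 86 and 78.1 CPM, and at day 3 they overlapped, with 141, 129.5 and 126 against 155, 162 and 136 CPM. The 2 log2 fold changes were -0.12 ± 0.10 and -0.17 ± 0.15 (SE, adjusted p = 0.534 and 0.489, edgeR). When the 24 treated and control libraries of days 3 to 21 were fitted together, the mean FAKi effect on LAMB1 was -0.26 ± 0.059 (SE, adjusted p = 0.00466, edgeR). This passed the adjusted p, as 15.7% of all genes did, but lay far below the fold threshold, and it kept an adjusted p of at most 0.01 in all 24 fits without a library.

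LAMC1, the gamma chain of nearly all laminins, did not keep to a single direction. At day 7 the FAKi libraries had 149, 153 and 160 CPM and lay below the DMSO libraries at 166, 169 and 172 CPM. At day 14 they had 148, 146 and 158 CPM and lay above DMSO at 114, 130.5 and 127 CPM. The log2 fold changes were small on both days, -0.13 ± 0.12 and 0.28 ± 0.098 (SE, adjusted p = 0.79 and 0.0627, edgeR). At day 3 FAKi had 199, 212 and 213 CPM and DMSO 204, 149 and 108 CPM, a log2 difference of 0.46 ± 0.22 (SE, adjusted p = 0.225, edgeR), which was 0.72 without DMSO day 3 replicate 1 (adjusted p = 0.00418) and 0.26 without replicate 3. The day 21 value also turned on single libraries. The FAKi libraries had 88.3, 95.9 and 106 CPM, and DMSO replicates 1 and 2 had 61.8 and 64.8 CPM while replicate 3 had 124 CPM. The log2 fold change was 0.23 ± 0.27 (SE, adjusted p = 0.574, edgeR) and without DMSO day 21 replicate 3 it was 0.65 (adjusted p = 5.57e-05), while without replicate 1 it was 0.04.

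LAMA4, the alpha chain of endothelial, muscle and nerve laminins, was apart at day 3, when FAKi had 21.1, 18.8 and 21 CPM and DMSO 16.2, 15.7 and 12.3 CPM. The log2 fold change of 0.48 ± 0.17 (SE) did not pass the adjustment (adjusted p = 0.141, edgeR). Without DMSO day 3 replicate 1 it was 0.56 (adjusted p = 0.0262, edgeR), and without DMSO day 3 replicate 3 it was 0.36. The adjusted p reached 0.367 without FAKi day 3 replicate 2 (edgeR). In both treatments LAMA4 stayed between 10.6 and 15.2 CPM on day 7, between 8.82 and 12.2 on day 14 and between 8.87 and 13.8 on day 21, and the libraries overlapped on these days. The log2 fold changes were 0.12 ± 0.17, 0.15 ± 0.17 and -0.18 ± 0.19 (SE, adjusted p of 0.871, 0.673 and 0.521, edgeR). The mean FAKi effect over the 4 days was 0.14 ± 0.087 for LAMA4, 0.21 ± 0.10 for LAMC1 and 0.05 ± 0.15 for FN1 (SE, adjusted p = 0.3, 0.177 and 0.873, edgeR). For LAMC1 the mean effect without DMSO day 21 replicate 3 was 0.31 (adjusted p = 0.00419, edgeR), the highest of 24 fits without a library. The lowest was 0.16, without DMSO day 3 replicate 3. Its adjusted p reached 0.31 without DMSO day 21 replicate 1 (edgeR).

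The thrombospondins are antiangiogenic glycoproteins that bind CD36 and CD47, and THBS1 is a widely used target of YAP signaling. THBS1 had few counts, but they were distributed unevenly: 48 counts fell in the 12 FAKi libraries and 13 in the 12 DMSO libraries of the same days. At day 14 the FAKi libraries had 13, 7 and 5 counts and each DMSO library had 0. Against a floor of 3 counts over the DMSO group, the FAKi counts of day 14 correspond to a ratio of at least 8.93. This bound covers the counting error of the DMSO group only and takes the FAKi counts as measured. At day 21 the FAKi libraries had 4, 1 and 5 counts and each DMSO library 0, with too few counts for the test. Against the same floor the FAKi counts of day 21 correspond to a ratio of at least 3.27. At day 3 there were 1, 1 and 5 counts in FAKi and 1, 0 and 1 in DMSO, which did not overlap after scaling, and at day 7 there were 5, 1 and 0 against 6, 1 and 4. At day 14 alone THBS1 had an adjusted p of 0.0728 (edgeR) and was not called. It reached the 20 counts on that day only through its FAKi libraries, with 25 counts against 0 in DMSO. The mean FAKi effect over 4 days called 1 matrix gene, THBS1 (adjusted p = 0.0037, edgeR), where 1.89% of all genes were called. THBS1 reached the 20 counts needed for that fit only through its FAKi libraries, so the call is a description and not support for a difference. Its fitted value, 3.21 ± 0.69 on the log2 scale (SE), rests on DMSO groups without counts and is not a measure of size, and DESeq2 gave no adjusted p for it. The THBS1 exons overlap those of genes on the opposite strand over 4.63% of their length, and the counting command names no strand.

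**Figure D3:**
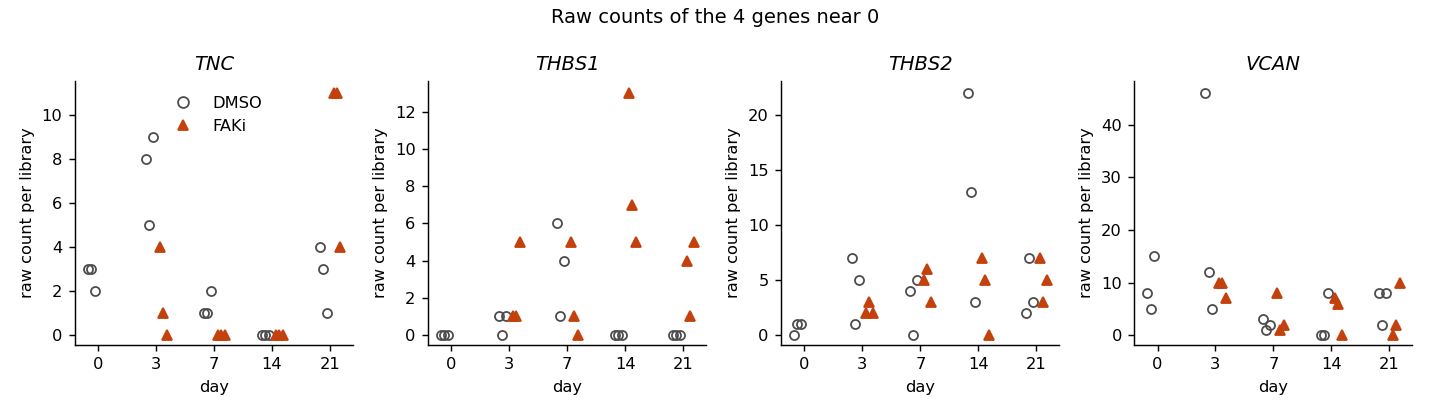
Raw counts per library (vertical axis) of TNC, THBS1, THBS2 and VCAN against day, with circles for DMSO and triangles for FAKi. THBS1 is at 0 in all DMSO libraries of days 0, 14 and 21, and TNC is at 0 in all 6 libraries of day 14.

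TNC, which encodes tenascin-C, an anti-adhesive glycoprotein of tumour and wound matrix, was missing from all 6 libraries of day 14 and from the 3 FAKi libraries of day 7. A count of 0 over a group allows up to 3 counts in that group, so these zeros do not show that the gene was silent. At day 21 TNC had 11, 11 and 4 counts in FAKi and 4, 3 and 1 in DMSO, which overlapped after scaling, and at day 3 it had 4, 1 and 0 counts in FAKi and 8, 5 and 9 in DMSO. The log2 fold changes were 1.80 ± 0.81 at day 21 and -1.14 ± 0.82 at day 3 (SE, adjusted p = 0.164 and 0.413, edgeR). THBS2 had 0 to 22 counts per library, highest in DMSO day 14 replicates 1 and 2 with 22 and 13 counts. Its FAKi libraries of day 7, with 5, 6 and 3 counts, lay above the DMSO libraries with 4, 0 and 5 after scaling, at a log2 fold change of 1.00 ± 0.81 (SE, adjusted p = 0.759, edgeR). An antisense gene covers 39.2% of the THBS2 exons, so these counts may include its reads. VCAN had 0 to 46 counts per library, with the highest value in DMSO day 3 replicate 1, and no FAKi difference that passed on the 3 days with enough counts for a test (adjusted p between 0.637 and 0.989, edgeR).

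Time in culture was followed in the DMSO libraries, whose 4 comparisons share the day 0 libraries. Against day 0 the calls were 0 of 7 matrix genes tested at day 3, 1 of 6 at day 7, 1 of 7 at day 14 and 2 of 6 at day 21. The call at day 7 was VCAN, which passed the count filter only through the day 0 libraries. Over all genes the shares called were 0%, 0.699%, 6.07% and 23.3%, and leaving out each library in turn gave 0 to 1439, 105 to 153, 1050 to 1780 and 3402 to 7999 called genes. The mitochondrial share in DMSO was 17% to 18.8% at day 0, 17% to 19.3% at day 7, 22% to 27% at day 14 and 5.49% to 9.75% at day 21, and its part in these changes was not tested. On the adjusted p alone 4, 5 and 4 matrix genes passed at days 7, 14 and 21, all of them lower than at day 0, when 4.94%, 28.3% and 44.9% of all genes passed. At day 3 the unadjusted p was under 0.05 for 1 matrix gene, SPARC, and for 2242 genes in all, and DESeq2 also called no matrix gene.

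FN1 had 27, 22.5 and 28 CPM at day 0 and declined through the DMSO series given above. Its log2 fold change against day 0 was -0.57 ± 0.10 at day 7, -1.04 ± 0.17 at day 14 and -1.14 ± 0.31 at day 21 (SE, adjusted p of 0.00029, 0.000349 and 0.0189, edgeR), and the last 2 were calls. At day 14 the fold was -0.84 without DMSO day 14 replicate 1 and -0.97 without DMSO day 0 replicate 3, both under the fold threshold. At day 21 the fold was -1.64 without DMSO day 21 replicate 3, and the call was lost without any of the other 2 day 21 libraries or without day 0 replicate 1 or 3, with an adjusted p of up to 0.0721. LAMC1 had 185, 176 and 184 CPM at day 0 and fell by 0.56 ± 0.09 on the log2 scale at day 14 and by 1.13 ± 0.26 at day 21 (SE, adjusted p of 0.000336 and 0.00947, edgeR), of which the second was a call. Without DMSO day 21 replicate 3 the LAMC1 fold was -1.53, and without replicate 1 or 2 it was -0.94 or -0.98.

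LAMB1 took another course, with its lowest DMSO level at day 14. From 165, 159 and 164 CPM at day 0 its log2 fold change was -0.70 ± 0.07 at day 7, -0.9994 ± 0.09 at day 14 and -0.42 ± 0.12 at day 21 (SE, adjusted p of 1.09e-08, 1.77e-06 and 0.0248, edgeR). The day 14 value so lay at the fold threshold itself, and with the replicate number as a block it was -1.0003 and called. For the day 21 value of LAMB1 the adjusted p was 0.0992 without DMSO day 21 replicate 1 (edgeR). Without DMSO day 21 replicate 3 that value was -0.51 (adjusted p = 1.92e-08, edgeR). LAMA4 had 16.6, 16.3 and 17.7 CPM at day 0 and log2 fold changes at days 7, 14 and 21 of -0.46 ± 0.11, -0.75 ± 0.14 and -0.51 ± 0.16 (SE, adjusted p of 0.00876, 0.00105 and 0.0311, edgeR). Its adjusted p rose to 0.106 at day 7 without DMSO day 7 replicate 3 (edgeR). At day 21 it rose to 0.116 without DMSO day 21 replicate 1 (edgeR). Without DMSO day 21 replicate 3 the LAMA4 fold was -0.65 (adjusted p = 9.72e-06, edgeR). SPARC had 82.6, 78.1 and 91.3 CPM at day 0, passed at day 14 with -0.49 ± 0.09 (SE, adjusted p = 0.00122, edgeR) and was back at 0.04 ± 0.13 at day 21 (SE, adjusted p = 0.81, edgeR). The day 14 and day 21 DMSO levels of SPARC, 60.1 ± 2.56 and 86.9 ± 7.98 CPM (SD, n = 3), did not overlap, beside 80.9 ± 4.03 and 46.8 ± 1.94 CPM in FAKi. VCAN had 8, 5 and 15 counts at day 0 and 3, 1 and 2 counts at day 7, a call at -2.86 ± 0.65 (SE, adjusted p = 0.005, edgeR) that both stricter count filters removed and for which DESeq2 gave no adjusted p. VCAN reached the 20 counts only through the 28 of day 0, beside 6 at day 7, so this call is a description too.

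**Figure D4:**
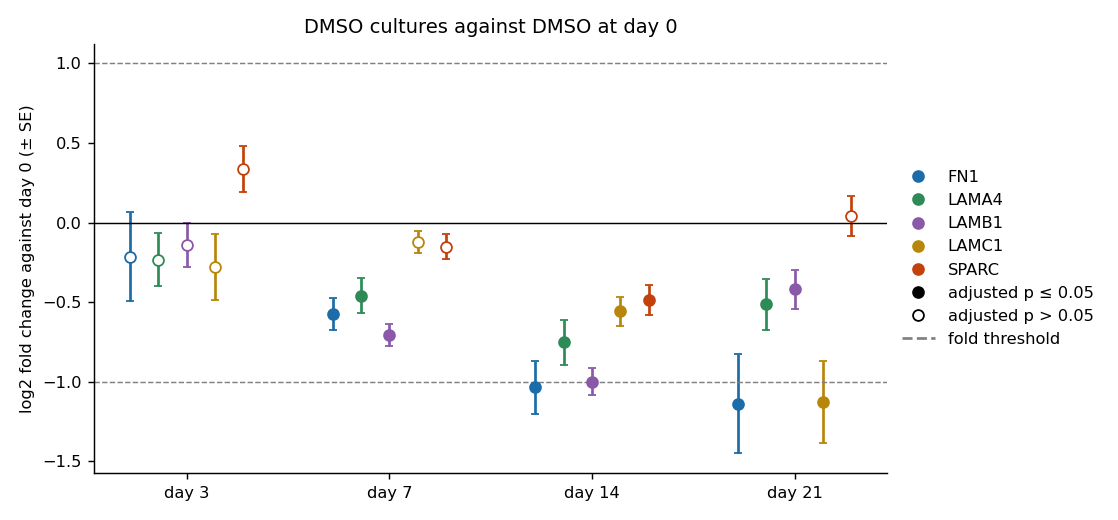
Log2 fold change of DMSO libraries at days 3, 7, 14 and 21 against DMSO at day 0 (vertical axis, bars for the SE) of the 5 expressed genes, filled where the adjusted p was at most 0.05, with dashed lines at the fold threshold. FN1, LAMA4 and LAMB1 are filled and below 0 at days 7, 14 and 21, LAMC1 at days 14 and 21, and SPARC at day 14.

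The expressed genes were not independent of each other across libraries. Within groups, as deviations of log2 CPM from the group mean over 27 libraries, FN1 and LAMC1 had r = 0.883 (rho = 0.813), and r = 0.813 without the 2 libraries in which FN1 deviated most, DMSO day 21 replicate 3 and DMSO day 3 replicate 3. FN1 and LAMB1 had r = 0.731, LAMB1 and LAMC1 r = 0.713, and LAMA4 and LAMB1 r = 0.694. SPARC had r = -0.0336 with LAMB1, -0.177 with LAMA4, 0.456 with LAMC1 and 0.397 with FN1. These values share library depth, scaling and the libraries that stood apart, and they are given as descriptions. Over the means of the 9 groups FN1 and LAMA4 had r = 0.953, and LAMB1 and LAMC1 had r = 0.254.

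The genes most like each expressed gene were sought among 16980 others by the Pearson r of log2 CPM over the 27 libraries. SPARC was most like AURKA, the mitotic kinase Aurora A (r = 0.953), then CDC25B (0.928), a phosphatase that activates cyclin-dependent kinases, and TPGS2 (0.927). FN1 was most like TBC1D14 and XYLT1 (both 0.958) and YEATS2 (0.953), and LAMC1 most like SASH1 (0.977), YWHAZP2 (0.974) and NOTCH2 (0.969). LAMB1 had lower values, with L1CAM, a neural cell adhesion molecule, at 0.917, CTNNA1 at 0.904 and CAPN3 at 0.901. LAMA4 had ABCA1 at 0.892, PAG1 at 0.878 and FN1 itself at 0.869.

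A list of 8 other laminin chains places the 3 chains above in their family. Per kilobase of exon LAMB2 had the highest level of these chains at 39.6 CPM per kb, LAMA1 had 9.32, LAMC3 7.22 and LAMA5 6.7, and LAMA2, LAMA3, LAMB3 and LAMB4 were all at or below 0.316. LAMA4 at 1.89 CPM per kb was thus lower than LAMA1 and LAMA5, the alpha chains of epithelial basement membranes. With 7 of the 8 tested, LAMA1 was called higher in FAKi at day 14, at 1.04 ± 0.11 on the log2 scale (SE, adjusted p = 2.29e-06, edgeR; means of 85 and 41.1 CPM), as was LAMA3 at 1.24 ± 0.39 (SE, adjusted p = 0.0382). For LAMA1 the FAKi effect changed between days 14 and 21 by -1.47 ± 0.23 (SE, adjusted p = 0.00075, edgeR), a sign shared with SPARC over the same libraries. LAMB3, a chain of hemidesmosome-bound laminin, was called lower at day 21 at -2.37 ± 0.36 (SE, adjusted p = 0.00955, edgeR), from 2.64 to 0.514 CPM. In DMSO, LAMA1 was called lower at day 14 against day 0 at -1.36 ± 0.11 (SE, adjusted p = 1.48e-06, edgeR), and LAMB3 at -1.14 ± 0.39 (SE, adjusted p = 0.0385). The median of the chains tested was 0.66 at day 14 and 0.05 at day 21 in FAKi against DMSO, beside -0.01 and 0.01 over all genes. The share of all genes called was 1.66% and 5.28% in these comparisons, and 6.07% in DMSO at day 14 against day 0. Of the 4 laminin partners, with agrin (AGRN) at 27.5 and perlecan (HSPG2) at 3.48 CPM per kb, none was called in these contrasts.

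**Figure D5:**
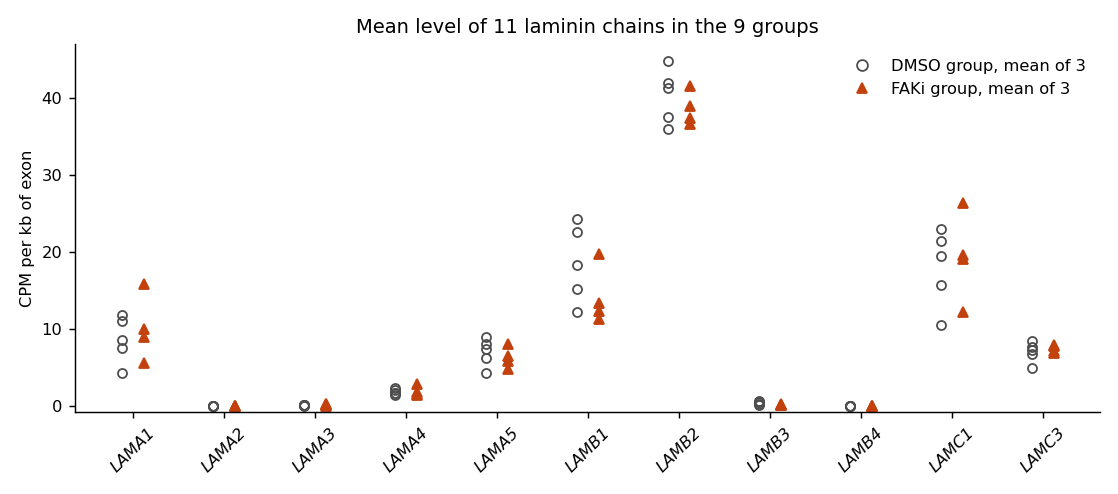
Mean level of 11 laminin chains in CPM per kb of exon (vertical axis), with a circle for each of the 5 DMSO groups and a triangle for each of the 4 FAKi groups. LAMB2, LAMC1 and LAMB1 have the highest levels and 4 of the other chains lie near 0.

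Among 21 other matricellular genes 13 were tested at days 14 and 21, with 1 called on each day. The share of all genes called was 1.66% and 5.28%, which also stands beside the calls of the lists below. CCN1, a secreted integrin ligand, was called higher in FAKi at day 14 at 1.10 ± 0.19 (SE, adjusted p = 0.000626, edgeR), from a mean of 5.49 to 11.8 CPM. For day 21 CCN1 was not called, at 0.06 ± 0.22 (SE, adjusted p = 0.874, edgeR). Its relative CCN2 was called lower at day 21 at -2.46 ± 0.35 (SE, adjusted p = 0.0075, edgeR), from a mean of 2.59 to 0.471 CPM. For day 14 CCN2 was not called, at 0.97 ± 0.72 (SE, adjusted p = 0.459, edgeR). In DMSO against day 0, SPP1, which encodes osteopontin, was called higher at day 14 at 6.32 ± 0.39 (SE, adjusted p = 1.17e-07, edgeR; 15.6 and 0.171 CPM), and CCN2 was called lower at -1.94 ± 0.62 (SE, adjusted p = 0.0286). The median log2 fold change in FAKi was 0.05 at day 14 and 0.49 at day 21.

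Of 12 fibulins and fibronectin partners 11 were tested. FBLN1, a fibronectin-binding fibulin, was called lower in FAKi at day 21 at -1.43 ± 0.13 (SE, adjusted p = 0.00257, edgeR; 39.5 and 108 CPM), and LTBP1, a latent TGF-beta binding protein, at day 14 at -1.32 ± 0.41 (SE, adjusted p = 0.0375). Between days 14 and 21 the FAKi effect on FBLN1 changed by -1.76 ± 0.17 (SE, adjusted p = 2.28e-05, edgeR). The medians were 0.23 and -0.28 at days 14 and 21. Among the lecticans, to which VCAN belongs, brevican (BCAN) had the highest level at 182 CPM per kb. BCAN was called higher in FAKi at day 14 at 1.25 ± 0.097 and at day 21 at 1.09 ± 0.15 (SE, adjusted p = 1.56e-08 and 0.00666, edgeR), with means of 1140 and 477 CPM at day 14, and it was the only call among 4 lecticans and link proteins tested.

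Receptors were present for each ligand group. Of 23 receptors 20 and 19 were tested at days 14 and 21, with 1 called higher on each day and 1 lower at day 21. Over all genes 1.66% and 5.28% were called on these days. ITGA9, an integrin chain that binds tenascin-C and the alternatively spliced EDA segment of fibronectin, was called higher in FAKi at both days, at 1.23 ± 0.13 and 1.42 ± 0.19 (SE, adjusted p = 2.69e-06 and 0.00646, edgeR), and its mean effect over the 4 days was 1.39 ± 0.10 (SE, adjusted p = 1.41e-09). CD36, the thrombospondin receptor, was called lower at day 21 at -2.45 ± 0.17 (SE, adjusted p = 0.00135, edgeR; 40.4 and 224 CPM). In DMSO at day 21 against day 0, 4 of 19 receptors tested were called, where 23.3% of all genes were, and ITGB1, DAG1, ITGA2 and ITGB3 were all lower, with ITGB1 at -2.03 ± 0.43 (SE, adjusted p = 0.00757, edgeR; 107 and 434 CPM). Of 16 proteases and inhibitors, 10 and 12 of which were tested at days 14 and 21, MMP15 was called lower in FAKi at day 21 at -1.004 ± 0.13 (SE, adjusted p = 0.00629, edgeR). None of the 7 lists had a call in FAKi against DMSO at day 3 or day 7, with 19 of 71 and 11 of 65 of their tested genes at an unadjusted p under 0.05, beside 23.8% and 8.77% of all genes, and edgeR called 0 and 6 genes of all tested on those days.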

How the data were processed

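RNA sequencing (TruSeq Stranded mRNA) was done on 27 libraries of 92.1 cells. As given in the submitters' processing notes and the methods, reads were trimmed with Trim Galore, checked with FastQC 0.11.8, aligned to hg38 with STAR 2.5.3a and counted with HOMER, version not given in the sources used here. The deposited values are raw counts: per the file header, the authors counted reads on the exons of 1 transcript per gene (GENCODE 39) without normalization, and the command names no strand option, so sense and antisense reads cannot be told apart. The table's coordinates, length and copy number columns were used as other descriptive values and were not normalized by the authors. All columns were matched to samples by label. The day label of DMSO day 21 replicate 3 has an additional digit in its column name, and its title gives day 21.

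Groups followed treatment and day in the labels. Genes with at least 20 counts over the fitted libraries were tested with edgeR 4.0.16 (TMM, glmQLFit, glmQLFTest) in R 4.3.3, in place of DESeq2 (1.42.0 here), the tool of the methods, here an alternative. Each pairwise comparison was fitted on its 6 libraries, the mean FAKi effect on 24 and the changes between days on 12. Calls required a Benjamini-Hochberg adjusted p no higher than 0.05 and a log2 fold change beyond 1 in either direction. Levels are CPM with TMM over 27 libraries. The fits were tested on simulated counts. Alternatives were other scalings and count filters, DESeq2, 1 fit of all libraries, the adjusted p alone, a replicate block and leaving out each library. The contrast between days 14 and 21 and the fits without mitochondrial genes were added after the data had been seen. The study plated in triplicate and repeated the experiment, and the labels do not say which of these a replicate number counts, so p-values measure the spread between these libraries, which may be technical. Depth differed between libraries by the range given, and low counts limit TNC, THBS1, THBS2 and VCAN.

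The 9 genes and the lists of related genes and markers were chosen with earlier results of these data known. From the lists, 1 gene is not reported here. Named genes were all 9 matrix genes, at most 4 called genes per list and comparison with the smallest p, and the 3 genes most like each expressed gene. Replicate numbers did not pair the libraries by the rule that all 3 correlations of same-numbered deviations exceed 0.1. Antisense overlaps were taken from GENCODE 44. Promoters came from RefSeq (GRCh38.p14), where all 9 symbols matched.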

Additional observations from a re-analysis of the deposited data

Results flagged for a closer look

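SPARC was flagged because its FAKi effect differed between days. The effect changed by -1.10 on the log2 scale from day 3 to day 21 and by -1.32 from day 14 to day 21, and both changes passed the test (edgeR, adjusted p = 0.0107 and 0.000115). All FAKi libraries were higher at day 14 (0.43) and all were lower at day 21 (-0.87).

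LAMC1 was flagged because all FAKi libraries were lower at day 7 (-0.13) and all were higher at day 14 (0.28). The difference between these 2 days was not tested.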

How the results depend on the processing

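The number of matrix genes called stayed within 1.5 times of the main value in 172 recomputed counts and moved in 31, and 803 recomputed fold changes kept their direction and side of the threshold. For FAKi against DMSO at days 14 and 21, 1 gene was called with all 27 libraries in one fit (THBS1) and 1 on the adjusted p alone (SPARC). The fit of 27 libraries called 632 and 1954 genes in all on these days. In the fit of 27 libraries, too, THBS1 passed the count filter only through its FAKi libraries. For DMSO at day 7 against day 0, the call of VCAN went to 0 with 10 counts in every library, filterByExpr, DESeq2 and all 27 libraries in one fit, and 4 genes passed on the adjusted p alone. For DMSO at day 14, LAMB1 and FN1 were called with the replicate block, in a fit that called 1370 genes in all. With all 27 libraries TNC and FN1 were called, where 1709 genes were called in all. This TNC call rests on 8 counts at day 0 against 0 at day 14 and is a description. On the adjusted p alone 5 genes passed at day 14 and 4 at day 21. For the mean FAKi effect, the call of THBS1 went to 0 with 10 counts in every library, filterByExpr and DESeq2, and 2 genes passed on the adjusted p alone. The cause of these changes was not tested beyond the filters' own construction.

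Leaving out a library gave 0 to 1 calls for FAKi against DMSO at day 3, 0 to 1, 0 to 3 and 0 to 3 for DMSO at days 7, 14 and 21 against day 0, and 0 to 1 for the change from day 3 to day 21. Over all genes these fits called 0 to 2765, 105 to 153, 1050 to 1780, 3402 to 7999 and 156 to 1666 genes. The 3 calls at DMSO day 14 were FN1, VCAN and THBS2, without DMSO day 14 replicate 3, and VCAN and THBS2 had few counts. Fold changes (log2) that turned sign when a library was left out ranged for FN1 from -0.22 to 0.12 at day 7, -0.262 to 0.0499 at day 14, -0.47 to 0.27 at day 21, -0.616 to 0.0364 for DMSO day 3 against day 0, -0.0112 to 0.184 for the mean effect and -0.42 to 0.29 for the change from day 14 to day 21. They ranged for SPARC from -0.0378 to 0.0976 for DMSO day 21 against day 0, and for LAMC1 from -0.48 to 0.20 for the change from day 3 to day 21 and -0.25 to 0.33 for that from day 14 to day 21, where upper quartile scaling gave 0.0099. Where a group kept 2 libraries, the spread was pooled over the fitted groups.

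Same-numbered FAKi and DMSO libraries at day 21 had correlated deviations of 0.213, 0.0556 and 0.405 over the genes tested, and on no day were all 3 over 0.1. Over genes of at least 1 CPM, a check added after the data had been seen, they were 0.43, 0.134 and 0.65 at day 21, and replicates 1 and 2 correlated better across numbers (0.478). With the replicate block, LAMB1 in DMSO at day 14 against day 0 moved from -0.9994 to -1.0003 and was called, and it changed no other call among the matrix genes. Counts set the limit for TNC, THBS1, THBS2 and VCAN, whose highest counts were 11, 13, 22 and 46 in a library.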

Other observations

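XYLT1, which starts the glycosaminoglycan chains of proteoglycans, was among the genes most like FN1 (r = 0.958 over 27 libraries). The summed level of the 9 matrix genes in DMSO went from 472 ± 17.2 CPM at day 0 to 289 ± 11.8 CPM at day 14 and 317 ± 62.7 CPM at day 21 (SD, n = 3), and in FAKi from 520 ± 12.5 CPM at day 3 to 254 ± 15.3 CPM at day 21.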
